A study of Mus musculus with 12 samples.

Results

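The immunity-related GTPases (IRG) are a family of interferon-inducible GTPases, and 7 of them, Irgm1, Irgm2, Igtp, Iigp1, Tgtp1, Tgtp2 and Ifi47, were followed through 12 mouse tumors. The genes were chosen by symbol, with earlier results of these data known. Each is the row of the deposited table whose Ensembl identifier carries that symbol, 7 of the 55401 genes in the table. All 7 passed the filter on low counts, which kept 20818 genes. Tumors grew for 21 days from 125000 TC2Ras cells, a mouse prostate cancer line driven by Ras, injected under the skin of both flanks, and the flanks of 1 mouse were combined into 1 sample. Control tumors held TC2Ras cells alone in mice that drank water without added arsenic. ASC tumors were started with 1% adipose-derived stromal cells (ASC), primary cells from male transgenic C57BL/6 mice that carry GFP. As300 tumors held TC2Ras cells alone in mice given 300 ppb inorganic arsenic (iAs) in the drinking water after implantation, and ASC_As300 tumors combined the stromal cells with the same iAs dose. All mice had eaten low-arsenic chow beforehand, and each group had 3 tumors. The strain, sex and age of the host mice are not given in the sources used here, and how many implanted ASC were left at day 21 cannot be read from this count table.

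IRG proteins are made in response to interferon gamma and act inside the cell against bacteria and parasites that live in vacuoles. Effector proteins (the GKS class: Iigp1, also called Irga6; Tgtp1 and Tgtp2, both called Irgb6; and Ifi47, also called Irgd) gather on the vacuole membrane and break it open. Regulators (the GMS class: Irgm1, Irgm2 and Igtp, also called Irgm3) sit on the cell's own membranes and keep the effectors in their inactive, GDP-bound form there. Loading onto a vacuole also needs the machinery that attaches ATG8 proteins to membranes, and the guanylate-binding proteins (GBP) are a related interferon-induced family that acts at the same vacuoles. Interferon gamma acts on its target genes through the gamma-activated site (GAS). Type I interferons and IRF1 act through the interferon-stimulated response element (ISRE).

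Promoter sequences are shown first because a GAS and an ISRE core stand at the same distance from each other in 4 of them. Whether these cores have a part in the levels was not tested. RefSeq (GRCm38.p6) gave a promoter for 6 of the 7 genes, and Iigp1 is named only. Each line below gives the 100 bases before the RefSeq start, 5′ to 3′ on the strand of the gene, with GAS cores (TTCNNNGAA) and ISRE cores (GAAANNGAA) in capitals. The GAS core reads the same on both strands, and both strands were searched for the ISRE core.
Irgm1 (chr11:48871421-48871520, minus strand): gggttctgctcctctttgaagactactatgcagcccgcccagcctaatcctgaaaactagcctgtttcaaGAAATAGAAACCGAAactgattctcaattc
Irgm2 (chr11:58214877-58214976, plus strand): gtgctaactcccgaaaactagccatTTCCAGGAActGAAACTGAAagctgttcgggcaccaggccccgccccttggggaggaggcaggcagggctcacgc
Igtp (chr11:58199456-58199555, plus strand): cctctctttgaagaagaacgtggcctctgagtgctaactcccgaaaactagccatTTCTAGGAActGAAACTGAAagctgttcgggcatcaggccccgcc
Tgtp1 (chr11:48992247-48992346, minus strand): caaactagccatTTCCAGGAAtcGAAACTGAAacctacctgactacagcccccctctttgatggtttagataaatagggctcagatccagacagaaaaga
Tgtp2 (chr11:49064213-49064312, minus strand): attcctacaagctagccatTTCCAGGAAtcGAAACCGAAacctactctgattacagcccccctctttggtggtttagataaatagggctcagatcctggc
Ifi47 (chr11:49076487-49076586, plus strand): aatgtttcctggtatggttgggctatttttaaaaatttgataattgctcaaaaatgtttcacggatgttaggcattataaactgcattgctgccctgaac

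With the first transcribed base counted as 1, the GAS core began at -75 in Irgm2, -45 in Igtp, -88 in Tgtp1 and -81 in Tgtp2, and the ISRE core began 11 bases later in each. Irgm1 held ISRE cores at -30 and -24 that overlap each other and no GAS core, and Ifi47 held neither core in its promoter entry of 250 bases before to 50 after the start. Among all 32851 promoters of that length, 8.56% held an ISRE core, against 5 of the 6 IRG promoters. A GAS core was in 8.3% of all promoters and in 4 of the 6, and both cores were in 1.07% of all and in 4 of the 6. The spacing of 11 bases, which was chosen after it had been seen, occurred in 9 promoters in all (0.0274%), 5 of them of IRG genes: Irgm2, Igtp, Tgtp1, Tgtp2 and the further family member Gm12185. These promoters are not independent, since those of Irgm2 and Igtp were identical at 92.1% of 265 aligned bases and those of Tgtp2 and Gm12185 at 96.6%. The starts that RefSeq gives Irgm1, Irgm2, Tgtp1 and Gm12185 lie inside those genes as GENCODE M21 draws them. No binding was measured, so a match describes letters and not a site in use.

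The table gives whole-number counts per gene, and totals per tumor ran from 39157647 to 55168642. Single counts of the 7 genes ran from 163 for Tgtp1 in As300 replicate 2 to 9191 for Iigp1 in ASC replicate 1, so none was limited by depth. Levels are given as CPM, the gene's counts relative to the tumor's total after TMM scaling, whose factors lay between 0.9535 and 1.054. A gene was called where the edgeR quasi-likelihood test gave a Benjamini-Hochberg adjusted p under 0.05 over all 20818 genes and the change was at least 1.5-fold. Control replicate 1 stood apart on the first principal component, at -101.8 against -22.5 to 64.9 for the other tumors, with summed B cell marker levels of 190 CPM against 4.38 to 15 CPM elsewhere. Sample labels give the cell type as adipose-derived stromal cells, whereas the samples are whole tumors. Their epithelial markers summed to between 25.5 and 360 CPM, and the prostate gene Pbsn was at 0 in every tumor.

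The genes that keep IRG effectors in check were low without ASC and several times higher with them. Irgm1, a regulator found on the Golgi and on lysosomes, stood at 35.2, 26.2 and 21.5 CPM in the Control tumors and at 126, 112 and 138 CPM in the ASC tumors. Its levels were 27.3, 17.6 and 26.8 CPM in As300 and 107, 122 and 146 CPM in ASC_As300. Every tumor with ASC was above every tumor without, with 107 CPM as the lowest with ASC and 35.2 CPM as the highest without. Irgm2, a second Golgi regulator, measured 19.1, 16.3 and 12.2 CPM in Control, 98.1, 87.3 and 94.8 CPM in ASC, 14.1, 7.46 and 10.2 CPM in As300, and 72.0, 85.6 and 95.3 CPM in ASC_As300. Igtp, the regulator of the endoplasmic reticulum and lipid droplets, measured 21.3, 15.35 and 11.2 CPM in Control, 132.9, 113.5 and 153.3 CPM in ASC, 12.9, 11.6 and 14.8 CPM in As300, and 117.6, 148.5 and 155.5 CPM in ASC_As300. For both genes the tumors with and without ASC again did not overlap, and the lowest value with ASC was 3.77 times the highest without for Irgm2 and 5.33 times for Igtp.

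The effectors followed the same order of groups. Iigp1, an effector that gathers on the vacuoles of Toxoplasma and Chlamydia, measured 25.6, 16.5 and 12.8 CPM in Control, 186, 138 and 138 CPM in ASC, 15.0, 6.24 and 15.9 CPM in As300, and 149, 163 and 181 CPM in ASC_As300. Its lowest tumor with ASC was 5.4 times its highest without, the widest gap of the 7 genes. Tgtp1 and Tgtp2 encode nearly the same effector, which loads early onto parasite vacuoles. Tgtp1 measured 10.8, 6.18 and 4.49 CPM in Control, 67.9, 48.5 and 63.7 CPM in ASC, 7.18, 3.33 and 6.67 CPM in As300, and 58.6, 71.4 and 75.2 CPM in ASC_As300. Tgtp2 measured 16.5, 9.325 and 5.45 CPM in Control, 98.4, 73.0 and 93.7 CPM in ASC, 10.8, 4.31 and 8.83 CPM in As300, and 81.0, 97.7 and 104 CPM in ASC_As300. The tumors with ASC lay above all others for both. Ifi47, an effector that loads onto vacuoles after the others, measured 18.2, 13.9 and 7.96 CPM in Control, 64.5, 53.6 and 59.7 CPM in ASC, 12.9, 8.28 and 11.4 CPM in As300, and 51.8, 68.95 and 67.3 CPM in ASC_As300. Its gap was the narrowest, with 51.8 CPM as the lowest with ASC against 18.2 CPM as the highest without, a ratio of 2.85.

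**Figure D1:**
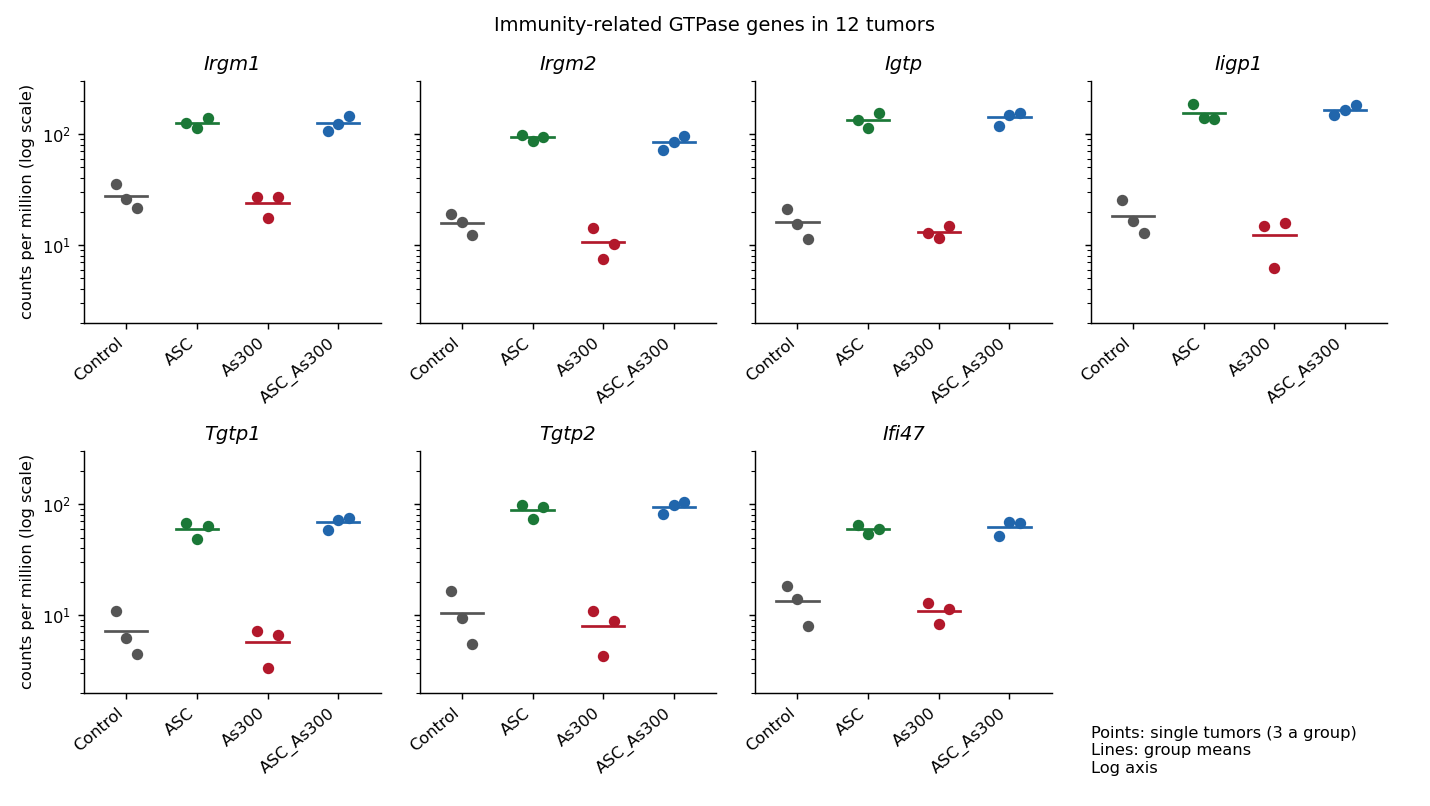
Level of each of the 7 IRG genes in each tumor, in CPM on a log axis, by group (points, single tumors; horizontal bars, group means; n = 3 per group). In every panel the 6 tumors with ASC lie above the 6 without, with the narrowest gap for Ifi47 (51.8 against 18.2 CPM).

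Without iAs, all 7 genes rose in tumors with ASC, by 4.44-fold (Ifi47) to 8.46-fold (Tgtp2). In that comparison of ASC with Control 0.706% of all genes tested were called higher. The 7 genes were chosen with earlier results of these data known, so shares of all genes here and below describe and do not test them. Igtp had the smallest adjusted p of the 7, with a log2 fold change of 3.06 (SE 0.212, n = 3 per group, edgeR quasi-likelihood, adjusted p = 4.22e-05). Irgm2 rose by 2.56 on the log2 scale (SE 0.214, edgeR adjusted p = 0.000167) and Irgm1 by 2.18 (SE 0.203, edgeR adjusted p = 0.000294). Among the effectors, Tgtp2 had the widest interval, 2.27 to 3.89 on the log2 scale at 95%, and the largest adjusted p by edgeR, 0.00134. The median log2 fold change was 3.06 over the 7 genes and -0.0044 over all genes tested. Groups did not overlap for any of the 7, as for 19% of all genes. The tumors come from separate mice, so these p-values measure the spread between mice.

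With iAs in the water, the same 7 genes rose in ASC_As300 over As300, by 5.22-fold (Irgm1) to 13.3-fold (Iigp1), where 0.793% of all genes were called higher. Adjusted p by edgeR lay between 1.38e-05 and 0.000493, and the median log2 fold change was 3.42 against 0.00019 over all genes. Iigp1 rose by 3.73 on the log2 scale, Tgtp1 by 3.58, Tgtp2 by 3.56, Igtp by 3.42, Irgm2 by 2.997, Ifi47 by 2.53 and Irgm1 by 2.38. The smallest changes were again those of Irgm1 and Ifi47. ASC_As300 against Control, which uses the same Control tumors as the first comparison, gave 4.52-fold to 9.54-fold higher levels with all 7 called (0.783% of all genes called higher; edgeR adjusted p from 3.26e-05 to 0.00102).

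Over both iAs levels together, 6 tumors with ASC against 6 without, every one of the 7 genes was called higher, while 1.36% of all genes were. The 7 genes did not overlap between tumors with and without ASC, as for 1.89% of all genes. By unadjusted edgeR p, Igtp ranked 2 among the 20818 genes with a 9.46-fold increase (log2 fold change 3.24, SE 0.151, edgeR adjusted p = 3.74e-07). Irgm2 ranked 4 (6.85-fold), Irgm1 8 (4.86-fold), Iigp1 11 (10.6-fold), Tgtp1 12 (10-fold), Ifi47 25 (5.06-fold) and Tgtp2 30 (10-fold). The order by p and the order by fold thus differ. Irgm1 changed least of the 7, with an SE of 0.144 on the log2 scale. Tgtp2 changed far more, with a larger SE of 0.267.

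In tumors without ASC, iAs left the IRG genes without a call. In As300 against Control 0 of the 7 were called in either direction, where 1.06% of all genes were. All 7 estimates were below 0, from -0.59 (Irgm2) to -0.21 (Irgm1) on the log2 scale, with a median of -0.33 against -0.03 for all genes. The groups overlapped for all 7, whereas 29.9% of all genes did not overlap. Irgm2 came nearest to a call, at 15.9 ± 3.47 CPM in Control and 10.6 ± 3.34 CPM in As300 (SD, n = 3). Its log2 fold change was -0.59 (95% interval -1.04 to -0.136, edgeR adjusted p = 0.112), and DESeq2 gave -0.57 with an adjusted p of 0.0379 at less than 1.5-fold. It was also the 1 gene with an unadjusted p under 0.05 in either tool, against 5025 of the 20818 genes tested by edgeR. DESeq2 called 0 of the 7. The intervals of the 7 reached from -1.23 to 0.39. Control replicate 1 had the highest level of each gene among the Control tumors, and without it 4 of the 7 estimates turned positive, to 0.02 for Irgm1, 0.12 for Tgtp1, 0.13 for Tgtp2 and 0.0081 for Ifi47.

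In tumors with ASC, levels of every IRG gene overlapped between mice with and without iAs, and only 8.07% of all genes did not overlap. ASC_As300 against ASC had 0 of 7 genes called (0% of all genes), 0 at an unadjusted p under 0.05 and 0 by DESeq2, with 669 of all genes at an unadjusted p under 0.05 and 11 called by DESeq2. Estimates ran from -0.15 (Irgm2) to 0.19 (Tgtp1) on the log2 scale, with intervals between -0.65 and 0.83. Averaged over both ASC levels, the iAs effect lay between -0.37 (Irgm2) and -0.07, with 0 of 7 called (0% of all genes) and 0 by DESeq2. Only Irgm2 had an unadjusted p under 0.05 (edgeR adjusted p = 0.255), against 3325 of the 20818 genes tested by edgeR. Whether the ASC effect differed with iAs was tested by the interaction. It was positive for all 7 genes, from 0.20 (Irgm1) to 0.66 (Iigp1, 95% interval -0.267 to 1.58), with a median of 0.44 against 0.0094 over all genes. It was called for 0 of 7 (0% of all genes, edgeR adjusted p from 0.511 to 0.799), with 0 at an unadjusted p under 0.05 and 0 by DESeq2. Of all 20818 genes, 2836 had an unadjusted p under 0.05 for the interaction by edgeR. A difference of the ASC effect between the water groups was therefore not detectable for these genes, and intervals up to 1.58 do not show that the effects were equal.

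**Figure D2:**
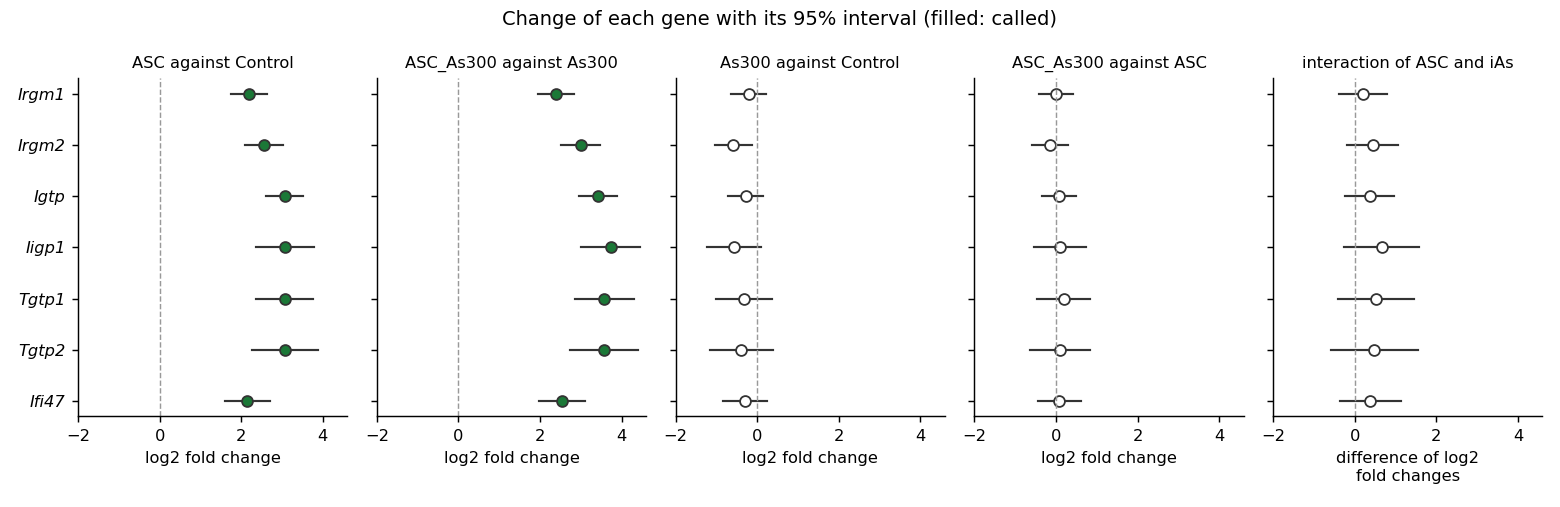
Log2 fold change of each IRG gene with its 95% interval in 4 comparisons, and the interaction as a difference of log2 fold changes (filled points, called; open points, not called; n = 3 tumors per group). Both ASC comparisons are filled for all 7 genes, from 2.15 to 3.73, and both iAs comparisons and the interaction are open for all 7.

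Within the family the genes were not equally abundant. Per kilobase of the longest coding transcript in GENCODE M21, Irgm1 was highest in Control at 12.2 ± 3.08 CPM per kb (SD, n = 3), followed by Igtp at 7.89 ± 2.51, Ifi47 at 7.52 ± 2.89, Iigp1 at 5.86 ± 2.11, Irgm2 at 4.5 ± 0.984, Tgtp2 at 3.71 ± 2 and Tgtp1 at 2.54 ± 1.16 CPM per kb. Apart from the step from Irgm1 to Igtp, neighbours in that order lay within 1 SD of each other. With ASC the order by this length differed. Igtp led at 65.9 ± 9.84 CPM per kb, then Irgm1 at 55.5 ± 5.74, Iigp1 at 49.4 ± 8.88, Ifi47 at 33.4 ± 3.07, Tgtp2 at 31.5 ± 4.82, Irgm2 at 26.5 ± 1.57 and Tgtp1 at 21.3 ± 3.61 CPM per kb. The means of Irgm1 and Iigp1 and those of Ifi47 and Tgtp2 differed by less than the larger SD of each pair, and the other steps were wider than either SD, most of all that from Iigp1 to Ifi47. As300 had the order of Control, from 10.6 ± 2.41 CPM per kb for Irgm1 to 2.03 ± 0.741 for Tgtp1. ASC_As300 had the order of ASC down to Tgtp2, led by Igtp at 69.5 ± 9.97 CPM per kb, with Tgtp1 at 24.2 ± 3.08 and Irgm2 at 23.9 ± 3.32 last. The order, and the change of the leading gene, depend on the length used. Over all annotated exonic bases Igtp led in all 4 groups, and Irgm1 had 4.76 CPM per kb in Control against 7.89 for Igtp and 5.39 for Ifi47. In As300 these were 4.12, 6.47 and 4.39 CPM per kb, and in ASC Irgm1 had 21.6 and Iigp1 26.5 CPM per kb.

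**Figure D3:**
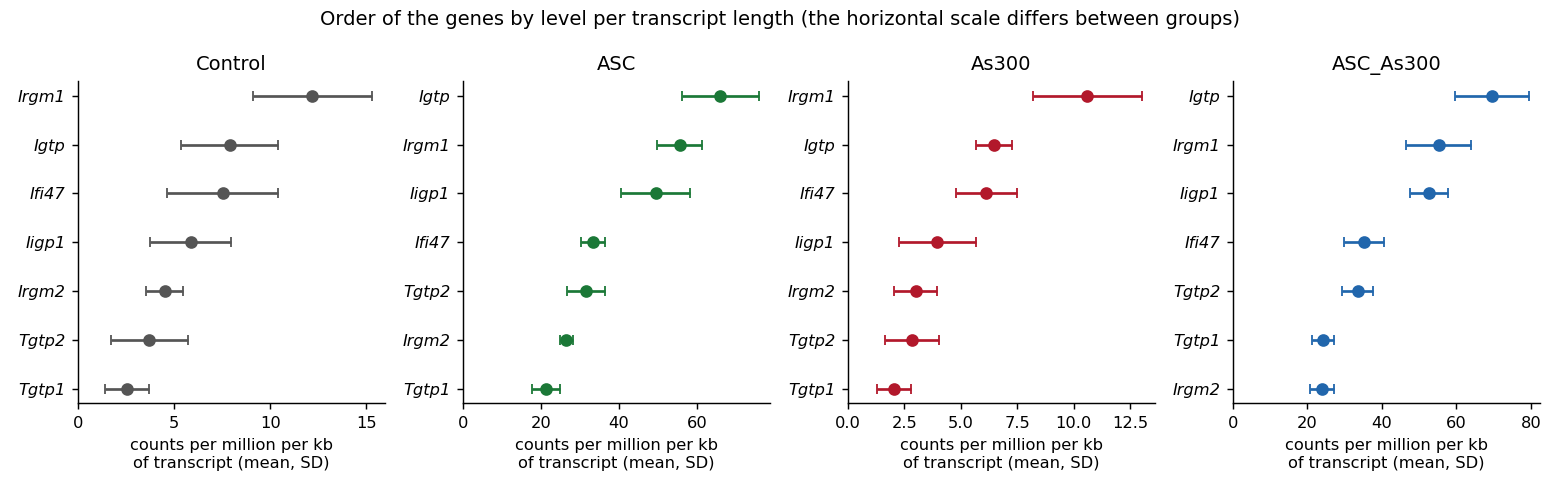
Level of the 7 IRG genes in CPM per kilobase of the longest coding transcript, ordered within each group (points, means of 3 tumors; error bars, SD; the horizontal scale differs between groups). Irgm1 leads without ASC at 12.2 and 10.6 CPM per kb, and Igtp leads with ASC at 65.9 and 69.5 CPM per kb; by the length of all exonic bases Igtp leads in all 4 groups.

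Summed over the 7 genes, the family reached 147, 104 and 75.6 CPM in Control, 774, 626 and 741 CPM in ASC, 100, 58.9 and 94.5 CPM in As300, and 636.6, 757.5 and 823.5 CPM in ASC_As300. Its make-up shifted as the sum grew. Irgm1 took a mean of 25.9% of the family's counts in Control and 28.5% in As300, against 17.6% in ASC and 16.9% in ASC_As300. Ifi47 took 12.1% and 13% without ASC, and 8.32% and 8.47% with ASC. Iigp1 moved the other way, from 16.8% and 14.1% without ASC to 21.6% and 22.3% with ASC. Effectors together, per kb, were 0.777 ± 0.119 of the regulators in Control, 0.92 ± 0.113 in ASC, 0.731 ± 0.117 in As300 and 0.985 ± 0.034 in ASC_As300 (ratio, SD, n = 3). The ratio overlapped between Control and ASC, with 0.893 in 1 Control tumor and 0.817 in 1 ASC tumor. It did not overlap between As300, at 0.599 to 0.823, and ASC_As300, at 0.946 to 1.01. These ratios use the length of the longest coding transcript. They were not computed over all annotated exonic bases, and the separation may depend on the length used. The coefficient of variation of CPM within a group was larger in Control and As300 than in ASC and ASC_As300 for 6 of the 7 genes. Igtp was the exception, at 31.8% in Control, 12.3% in As300, 14.9% in ASC and 14.3% in ASC_As300. Over the 7 genes it lay between 12.3% and 53.9% without ASC and between 5.93% and 18% with ASC.

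In the GRCm38 annotation of GENCODE M21, 6 of the 7 genes lie in a pair of clusters on chromosome 11. Irgm1 (chr11:48861968-48871683, minus strand), Tgtp1 (chr11:48985327-48994172, minus), Tgtp2 (chr11:49057194-49064206, minus) and Ifi47 (chr11:49076587-49096974, plus) form one, and Igtp (chr11:58199556-58207591, plus) and Irgm2 (chr11:58199618-58222782, plus) the other. Iigp1 lies on chromosome 18 (chr18:60376027-60392634, plus). The reads were counted against an annotation that is not given in the sources used here, so these positions are those of the reference annotation. Of 39 tested genes within 250000 bases of a member, 8 were on the list of further IRG symbols used here and 31 were not. Over both iAs levels, where 1.36% of all genes were called higher with ASC, 5 of the 8 and 2 of the 31 were. Their median log2 fold changes were 2.50 and 0.02. The 2 called among the 31 were Gm5970 near Iigp1 (2.58, edgeR adjusted p = 0.022) and Olfr56 (2.09, edgeR adjusted p = 0.00421). Gm5970 is annotated as a processed pseudogene and lies within the span of Gm4951, a further IRG gene. Olfr56 shares exonic bases with Ifi47.

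Several members share bases or reads with a neighbour, which limits how far their counts can be told apart. Tgtp1 and Tgtp2 are near-copies: their longest open reading frames were identical at 99.7% of 1248 aligned bases, and Tgtp1 took between 39.6% and 45.2% of the pair's counts in the 12 tumors. How the authors' counting split reads that match both is not known, so the 2 values are uncertain singly. Summed, the pair rose with ASC over both iAs levels by 3.32 on the log2 scale (edgeR adjusted p = 1.1e-05). Igtp and Irgm2 share 162 exonic bases on the same strand, 8.01% of Igtp and 4.39% of Irgm2, and their reading frames were identical at 73.1%. Tgtp1 shares 223 exonic bases with Gm12185, and Ifi47 shares 111 with Olfr56, an olfactory receptor gene, on the same strand. Olfr56 had 0.758 ± 0.16 CPM in Control and 2.97 ± 0.674 CPM in ASC (SD, n = 3), far below Ifi47. The pseudogene Gm12188, which overlaps Ifi47 on the opposite strand, had between 0 and 20 counts per tumor and was not tested.

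Of 19 further symbols of the IRG family, 11 were in the table and 9 passed the filter on low counts. With ASC over both iAs levels, 5 of the 9 were called higher (6 by DESeq2) and 0 lower by either tool. The median log2 fold change was 2.41. Of all genes tested, edgeR called 1.36% higher. Gm12250, also called Irgb10, an effector that opens bacterial membranes, measured 3.183, 2.801 and 1.237 CPM in Control, 13.26, 13.72 and 13.8 CPM in ASC, 1.851, 2.351 and 2.119 CPM in As300, and 14.18, 15.64 and 15.88 CPM in ASC_As300. It rose by 2.67 on the log2 scale (edgeR adjusted p = 9.81e-06), without overlap between tumors with and without ASC. Gm12185, the further member with the promoter pair described above, went from 0.932 ± 0.3 CPM in Control to 8.57 ± 2.53 CPM in ASC, and from 0.8 ± 0.24 in As300 to 8.59 ± 2.32 in ASC_As300 (log2 fold change over both levels 3.31, edgeR adjusted p = 9.81e-06). The other 3 called were Gm4841 (4.54, adjusted p = 0.0192 by edgeR, with 0 counts in 3 of the 6 tumors without ASC), F830016B08Rik (2.58, adjusted p = 0.0348) and Gm4951 (2.41, adjusted p = 0.000145).

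Of the 9 relatives, 4 were not called. Irgq, a distant member of the family, stayed between 17.8 and 24.8 CPM in all 12 tumors, with a log2 fold change of 0.04 (edgeR adjusted p = 0.934). Gm5431, 9930111J21Rik1 and 9930111J21Rik2 lie in the same cluster as Tgtp1, and had estimates of 0.84, 0.74 and 0.88 that were not called (edgeR adjusted p 0.132, 0.438 and 0.23). Their 95% intervals lay above 0 (0.318 to 1.37, 0.026 to 1.46 and 0.246 to 1.51). In the ASC effect 8 of the 9 relatives had an unadjusted p under 0.05 by edgeR, against 2268 of all 20818 genes. In ASC_As300 against As300 these 3 did not overlap between groups, as for 19.7% of all genes, with estimates of 1.05, 1.08 and 1.43 (edgeR adjusted p 0.286, 0.474 and 0.217). In As300 against Control edgeR called 0 of the 9, with 3 at an unadjusted p under 0.05, and DESeq2 called 1 lower. Of all 20818 genes, 5025 had an unadjusted p under 0.05 there by edgeR. 9930111J21Rik2 had the lowest estimate at -1.45 (edgeR adjusted p = 0.07). Irgc1, with 0 to 11 counts per tumor, and Gm12187, with 0 or 1, were not tested.

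Genes of the interferon gamma pathway, the known inducer of IRG genes, were higher with ASC in part. Over both iAs levels edgeR and DESeq2 each called 8 of 15 tested higher and 0 lower, with a median log2 fold change of 0.69. The share of all genes called higher by edgeR was 1.36%. Irf1, a transcription factor induced early by interferon gamma, measured 57.5 ± 9.34 CPM in Control, 162 ± 17.2 in ASC, 54.7 ± 4.28 in As300 and 172 ± 16.6 in ASC_As300 (SD, n = 3), a 2.97-fold increase (edgeR adjusted p = 1.37e-06). Nlrc5, the activator of MHC class I genes, rose 5.01-fold (adjusted p = 5.92e-05 by edgeR) and Stat2, a transcription factor of type I interferon signalling, 2.23-fold (adjusted p = 0.000126). The ligand Ifng and its receptor genes were picked after their values had been seen. Ifng had 5, 12 and 4 counts in Control, 114, 64 and 96 in ASC, 12, 0 and 23 in As300, and 100, 112 and 178 in ASC_As300. It was called higher with ASC (log2 fold change 3.63, edgeR adjusted p = 0.00385), from counts that are low in a whole tumor. The receptor genes Ifngr1 and Ifngr2 had log2 fold changes of 0.06 and 0.07 and were not called (edgeR adjusted p 0.804 and 0.758).

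Type I and III interferons and their receptors gave no call. Of 11 genes in the list 3 passed the filter, and Ifnar1, Ifnar2 and Il10rb, receptor chains, had log2 fold changes of 0.17, 0.17 and 0.15 with ASC (0 called by edgeR or DESeq2, 2 at an unadjusted p under 0.05; edgeR adjusted p 0.144, 0.341 and 0.499). Ifnb1, the gene of interferon beta, had between 0 and 13 counts per tumor, too few to compare at this depth. The 10 genes of ATG8 conjugation, all tested, had 0 calls with ASC by edgeR or DESeq2. None had an unadjusted p under 0.05, and their median log2 fold change was -0.01. Of all 20818 genes, 2268 had an unadjusted p under 0.05 in the ASC effect by edgeR. Atg7 and Atg3, the enzymes that pass ATG8 on to its lipid, stood at 0.10 and 0.09 (edgeR adjusted p 0.593 and 0.637), and the ATG8 genes Gabarapl1 and Map1lc3a at -0.10 each (adjusted p 0.655 and 0.746). In As300 against Control edgeR called 0 of the 10, with 6 at an unadjusted p under 0.05 (5025 of all 20818 genes), and DESeq2 called 1 higher. Map1lc3a came nearest there, at 0.57 (edgeR adjusted p = 0.0434), less than 1.5-fold.

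The GBP genes, partners of the IRG proteins at vacuoles, were called higher with ASC in 10 of 11 cases over both iAs levels (11 by DESeq2). Their median log2 fold change was 2.41, and edgeR called 1.36% of all genes higher. Gbp2, a GBP that coats bacteria and vacuoles, measured 26.9 ± 7.04 CPM in Control, 287 ± 61.4 CPM in ASC, 24 ± 5.32 CPM in As300 and 354 ± 43.7 CPM in ASC_As300 (SD, n = 3), a 12.6-fold increase (edgeR adjusted p = 3.74e-07). Gbp3 rose 7.13-fold (adjusted p = 1.37e-06 by edgeR), Gbp7 4.93-fold (adjusted p = 7.9e-06) and Gbp2b by 6.12 on the log2 scale (adjusted p = 1.63e-05), the latter from 0 to 27 counts without ASC. Gbp11 was the exception, at 1.81 with an edgeR adjusted p of 0.222. In As300 against Control edgeR called 0 of the 11, with 6 at an unadjusted p under 0.05 (5025 of all 20818 genes), and DESeq2 called 2 lower.

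**Figure D4:**
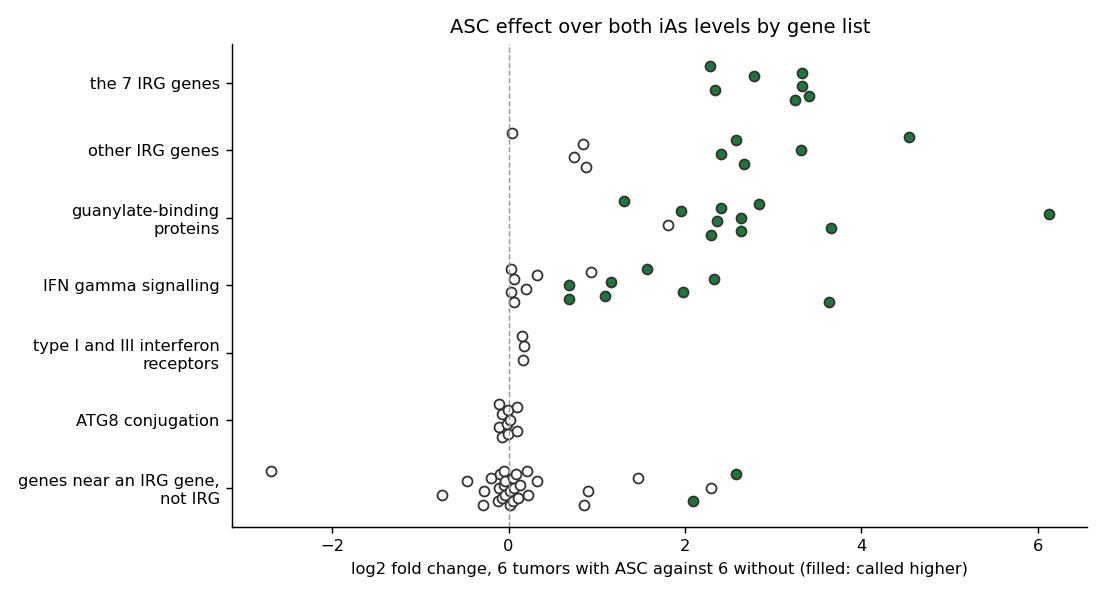
Log2 fold change with ASC over both iAs levels (6 tumors with ASC against 6 without) for each tested gene of 7 sets; each point is 1 gene, filled where called higher. All 7 IRG genes, 5 of 9 further IRG genes, 10 of 11 GBP genes and 8 of 15 interferon gamma pathway genes are filled. Filled among the others are 0 of 3 type I and III receptor genes and 0 of 10 ATG8 conjugation genes. Of the 31 neighbours outside the list of IRG symbols, 2 are filled. Of all genes tested, 1.36% were called higher.

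The genes whose pattern over the 12 tumors was most like that of the family were sought among 10524 genes with a mean log2 CPM of at least 3. Likeness was the root mean square distance between log2 CPM profiles, each centred on its Control mean, and smaller is more alike. Gbp3 was nearest at 0.21, with 18 ± 4.61 CPM in Control, 105 ± 13.8 in ASC, 12.6 ± 3.24 in As300 and 110 ± 12.3 in ASC_As300 (SD, n = 3). Serpina3g, a serine protease inhibitor, followed at 0.23 with 7.84 ± 5.46, 42.6 ± 6.93, 5.26 ± 1.67 and 47.4 ± 11.4 CPM in the same order of groups. Fcgr4, an activating antibody receptor of myeloid cells, was at 0.384, Gbp4 at 0.414, Gbp6 at 0.436 and Tap1, the peptide transporter of antigen presentation, at 0.444. The 7 genes themselves stood between 0.279 (Igtp) and 0.46 (Irgm1) from their own mean.

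Few of the T cell, NK cell and macrophage markers were called with ASC over both iAs levels, where 1.36% of all genes were called higher. In bulk tissue, more cells of a type and more RNA per cell cannot be told apart. The 8 T cell markers summed to 12.2, 14.6 and 72.6 CPM in Control, 48.4 to 64.9 CPM in ASC, 11.5 to 16.6 CPM in As300 and 39.4 to 64.3 CPM in ASC_As300, and 1 of the 8, Cd8a, was called higher with ASC. Control replicate 1 had the highest T cell sum of all 12 tumors, with an IRG sum of 147 CPM. This 1 tumor also had the highest B cell (190 CPM), plasma cell (21.7 CPM) and epithelial (360 CPM) sums. The 5 NK cell markers summed to 4.4 to 13 CPM without ASC and 15.2 to 20.7 CPM with ASC, with Klre1 and Klrk1, 2 of the 5, called higher. The 10 macrophage markers summed to 1530 to 2070 CPM without ASC and 1860 to 2760 CPM with ASC, overlapping, with 1 of 10 called higher, the complement gene C1qb. None of the T cell, NK cell or macrophage markers was at 0 throughout a group, and their part in the IRG levels was not tested.

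Markers of other cell types gave 1 call. The 8 fibroblast or ASC markers summed to between 3640 and 6120 CPM, with 0 of 8 called, and the 5 dendritic cell markers to between 13.3 and 23.2 CPM, with 0 of 5 called. The 5 epithelial markers summed to 64.2 to 360 CPM without ASC and to 25.5 to 46.9 CPM with ASC, and 1 of 5, the keratin Krt8, was called lower. The 3 plasma cell markers summed to 2.61 to 3.05 CPM in ASC and 1.94 to 2.29 CPM in ASC_As300, against 0.3 to 0.787 CPM in 5 of the 6 tumors without ASC and 21.7 CPM in Control replicate 1, with 0 of 3 called. B cell, endothelial and adipocyte markers had 0 called. Skeletal muscle markers ranged from 0.971 to 1410 CPM, high in 1 Control and 1 As300 tumor, with 0 of 5 called. The part of these markers in the IRG levels was not tested.

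**Figure D5:**
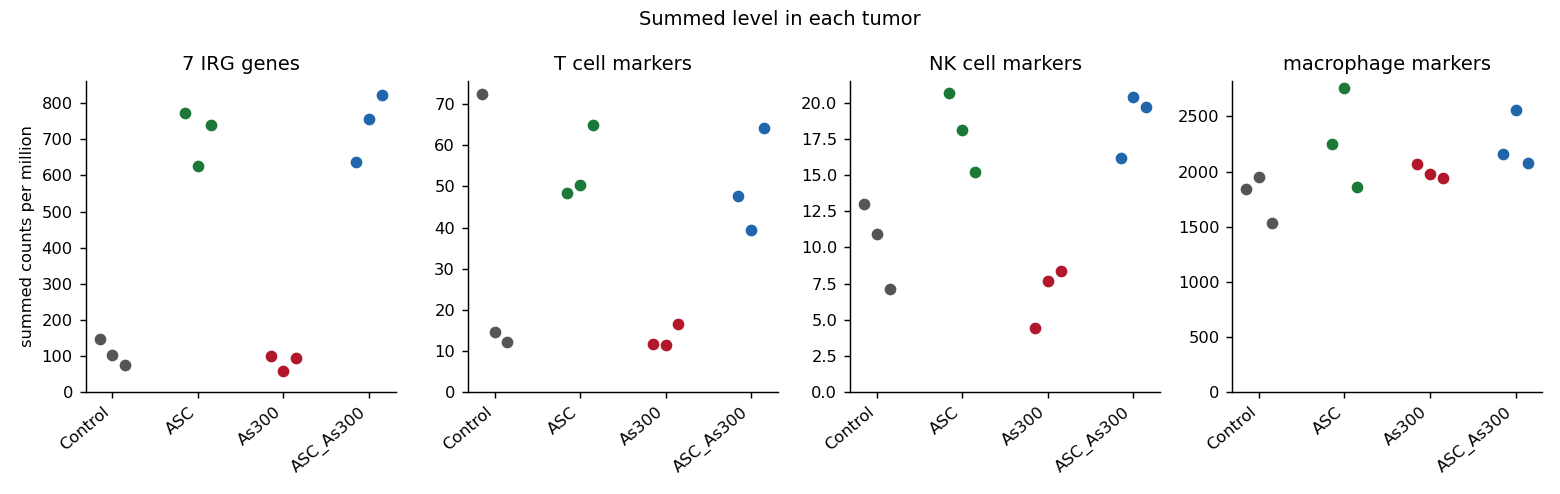
Summed CPM in each tumor of the 7 IRG genes and of the T cell, NK cell and macrophage markers, by group (1 point per tumor, vertical axes from 0 and different in each panel). The IRG sum separates tumors with and without ASC (626 or more against 147 or less), as does the NK cell sum (15.2 or more against 13 or less), while the T cell sum of Control replicate 1, 72.6, exceeds every other tumor.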

How the data were processed

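RNA from 12 tumors, 3 in each of 4 groups, was sequenced with a stranded poly(A) library kit. The deposited values are whole-number counts per Ensembl gene, which the authors made from trimmed paired-end reads. The submitters' processing notes name cutadapt 1.1.0, HISAT2 2.0, StringTie 1.3.4, DESeq2 and edgeR, and the study's methods add Ballgown and FPKM as the output. The step behind the whole-number counts, the genome build and annotation are not given in the sources used here. More genes had 4 counts in a tumor (1137 to 1298) than 3 (618 to 795) or 5 (380 to 414), and how many counts stand for a read pair is not known. Replicate tumors differed by more than counting noise in every pair.

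The groups were taken from the sample titles. The IRG members and gene lists were chosen with earlier results of these data known. Symbols and positions came from GENCODE M21 (GRCm38). Counts were filtered with filterByExpr by group, scaled by TMM and fitted with the edgeR 4.0.16 quasi-likelihood model (R 4.3.3, limma 3.58.1), 1 mean per group over all 12 tumors, with Benjamini-Hochberg adjustment over 20818 genes. Called genes had an adjusted p under 0.05 and at least a 1.5-fold change. A prior count of 2 was added for log2 CPM. With 3 tumors a side, 0.1 is the smallest p an exact test can reach, so p-values come from the fitted model. The procedure was tested on simulated counts that gave all genes the same dispersion and held no outlying tumor, a simpler setting than these data. Members of each list are named by smallest p in the ASC effect, up to 4 per list (1 of these is not reported here), every tested further IRG gene is named, the 6 genes most alike are named, and genes overlapping a member are named. Ifng, Ifngr1, Ifngr2, Ifnb1, Gbp11, Gm5970, Irgc1, Gm12187 and the called marker genes were named after their values were seen. Alternatives were DESeq2 1.42.0, other size factors, filters and thresholds, the summed Tgtp pair, 6-tumor fits, a replicate block and leaving out each tumor. Promoters came from RefSeq and were searched and aligned with Python 3.11.15 and Biopython 1.88. Protein sequences were not used here, so the protein patterns and protein identity planned for the family were not run.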

Additional observations from a re-analysis of the deposited data

How the results depend on the processing

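The 4 comparisons of tumors with and without ASC kept all their calls of the 7 genes under every alternative run: log2 fold changes ranged from 1.90 to 3.59 for ASC against Control, 1.98 to 3.68 for ASC_As300 against Control, 2.21 to 3.94 for ASC_As300 against As300 and 2.19 to 3.57 over both iAs levels. Counts of called genes stayed at 7, or 6 with the Tgtp pair summed, and at 0 in the iAs comparisons and the interaction. Of 1099 values of single genes, 1077 kept direction and side of the threshold, 1 passed the threshold (Irgm2 in As300 against Control by DESeq2, below 1.5-fold) and 21 turned direction, all of estimates without a call.

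Leaving out 1 tumor at a time, As300 against Control ranged from -0.33 to 0.023 for Irgm1, -0.54 to 0.12 for Tgtp1, -0.67 to 0.13 for Tgtp2 and -0.53 to 0.0081 for Ifi47. The iAs effect ranged from -0.17 to 0.0063 for Irgm1, -0.19 to 0.0341 for Igtp, -0.18 to 0.15 for Tgtp1, -0.29 to 0.11 for Tgtp2 and -0.23 to 0.0424 for Ifi47. ASC_As300 against ASC ranged from -0.13 to 0.0928 for Irgm1, -0.0251 to 0.19 for Igtp, -0.0294 to 0.19 for Tgtp2 and -0.00047 to 0.20 for Ifi47, and the interaction from -0.0334 to 0.32 for Irgm1 and -0.0389 to 0.76 for Tgtp2. Leaving out Control replicate 1 gave 11 of the 21 turned values. The cause was not tested. Over all genes, DESeq2 called 373 higher where edgeR called 147 in ASC against Control, 317 against 163 in ASC_As300 against Control, 308 against 165 in ASC_As300 against As300 and 393 against 283 in the ASC effect. In either direction it called 816 against 220 in As300 against Control, and 11, 114 and 174 against 0 in ASC_As300 against ASC, the iAs effect and the interaction.

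Replicate numbers did not pair the tumors: 2 of 18 same-numbered pairs had a correlation of deviations over 0.1. A fit with the replicate block changed no count of calls, with 7 genes called in the ASC effect (2.29 to 3.44), and turned Irgm1 in ASC_As300 against ASC to 0.0022. Levels per kb by the exon union, chosen after seeing the data, moved for Irgm1 to 4.76, 4.12, 21.6 and 21.5 in Control, As300, ASC and ASC_As300. For Iigp1 they moved to 3.14, 2.12, 26.5 and 28.2 in Control, As300, ASC and ASC_As300, and for Ifi47 to 24, 4.39 and 25.3 in ASC, As300 and ASC_As300. With 3 tumors per group, intervals of the iAs comparisons reached from 1.23 below 0 to 0.83 above 0 on the log2 scale. Only those of Irgm2 in As300 against Control (-1.04 to -0.136) and in the iAs effect (-0.681 to -0.0541) did not hold 0. Neither was called. Changes inside the intervals that held 0 could not be told from 0.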
